A study of Homo sapiens with 6 samples.

Results

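The high mobility group (HMG) genes around *HMGB3* were followed after *SPINK2* knock-down in the human acute myeloid leukaemia line FUJIOKA. The 10 genes, out of 63236 in the table, were picked by name: *HMGB1*, *HMGB2* and *HMGB3*, *HMGA1* and *HMGA2*, and *HMGN1* to *HMGN5*. They were selected around *HMGB3* because its own fall in this same comparison was already known, so the values of *HMGB3* are a description and carry no test. The relatives were not chosen by their values, and the question put to them was whether they moved with it. Of the 10 genes, 9 had reads and 8 were tested.

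Both groups were FUJIOKA cells made to express an shRNA stably from a doxycycline-inducible, puromycin-selected lentiviral vector. The 3 shNEG libraries carried a non-targeting scrambled shRNA and the 3 shSPINK2 libraries an shRNA against *SPINK2*. The labels list 2 such shRNAs and do not say which was in a library, whereas the study's methods describe only that called shRNA1 below. The time on doxycycline before RNA was taken is not given in the sources used here. Nothing says that the libraries came from separate cultures, so p-values measure the spread between these samples, which may be technical.

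The deposited table carries no replicate names, so the libraries are called a, b and c within each group, in the order of rising size factor. The libraries held between 33689863 and 34371920 recovered reads. *SPINK2* itself, the target, had 53, 63 and 56 reads with shNEG and 6, 9 and 7 with shSPINK2. Of 10 myeloid markers 8 passed the minimum mean of 10 normalised reads, among them *CEBPA*, *SPI1*, *LYZ*, *CD33* and *MPO*, whereas *KIT* and *CD68* did not. Of 12 markers of other cell types 10 stayed under that minimum, and *COL1A1*, which did not, had a mean of 149.1 normalised reads. Differences between libraries of a group were larger after knock-down. Over the 6948 genes whose mean reached 1000, the median coefficient of variation was 2.4% in shNEG and 4.36% in shSPINK2.

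HMG proteins are small, abundant chromatin proteins that change the shape of DNA without reading a long sequence. The HMGB proteins carry a pair of HMG boxes that bend DNA and, in the main, an acidic tail, and HMGB1 also acts outside the cell as an alarm signal. The HMGA proteins grip AT-rich DNA with AT-hooks. The HMGN proteins bind the nucleosome itself and compete with linker histone H1. In blood, HMGB3 is known from haematopoietic stem and progenitor cells and HMGB2 from dividing cells, and HMGA2 is a classical target of the let-7 microRNAs.

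*HMGB3* (ENSG00000029993.14; chromosome X, 150980509 to 150990771, plus strand, GRCh38) was the member with the lowest level after knock-down relative to control. It had 5389, 5588 and 5316 normalised reads with shNEG and 1276, 1332 and 1174 with shSPINK2. The groups lay far apart, and the shSPINK2 mean of 1261 ± 80.2 (SD, n = 3) was 23.2% of the shNEG mean of 5431 ± 141 (SD, n = 3). On the log2 scale the difference was -2.11 with a standard error of 0.05. A lower fold change was found for 1 other of the 6948 genes whose mean reached 1000, and for 8 of all 16079 genes tested.

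The stretch upstream of the principal *HMGB3* start is shown because it held both motifs described next, CCAAT and TTTGAA. That of *HMGN3*, the member that moved the other way, is shown for comparison. CCAAT is the box bound by NF-Y, and TTTGAA is the core of the cell cycle genes homology region. Both stretches are the 250 bases before the start site in RefSeq (GRCh38.p14), and capitals mark CCAAT and TTTGAA on either strand.
HMGB3, chrX:150983085-150983334, plus strand: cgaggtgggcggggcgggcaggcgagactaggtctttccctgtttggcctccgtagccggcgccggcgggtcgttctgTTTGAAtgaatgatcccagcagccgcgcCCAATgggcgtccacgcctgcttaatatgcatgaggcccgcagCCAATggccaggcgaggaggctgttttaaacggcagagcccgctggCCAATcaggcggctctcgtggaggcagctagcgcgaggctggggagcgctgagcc
HMGN3, chr6:79234683-79234932, minus strand: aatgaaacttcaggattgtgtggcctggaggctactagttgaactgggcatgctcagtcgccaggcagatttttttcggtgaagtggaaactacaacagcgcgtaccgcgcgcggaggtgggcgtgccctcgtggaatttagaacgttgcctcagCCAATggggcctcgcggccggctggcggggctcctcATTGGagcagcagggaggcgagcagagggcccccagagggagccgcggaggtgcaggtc
The *HMGB3* stretch held CCAAT 3 times and TTTGAA 1 time, with TTTGAA upstream of every CCAAT. The *HMGN3* stretch held CCAAT 2 times and no TTTGAA. Of all 35116 promoter entries, 32% held CCAAT at least 1 time, 2.93% held it at least 3 times, 13.3% held TTTGAA and 4.69% held both. The principal *HMGB1* start also held CCAAT 3 times, and the second *HMGB3* entry, 1056 bases from the principal start, held neither motif.

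The other promoter entries differed among themselves. In all, 8 members had 12 entries, *HMGB2* and *HMGA2* having no entry in the table used, and CCAAT lay in 7 of them, from 6 members. TTTGAA lay in 2 entries, those of *HMGB3* above and of an alternative *HMGB1* start at 696 bases from the principal one, an entry that also held CCAAT. *HMGN1*, *HMGN2* and *HMGN3* had CCAAT, as did the principal *HMGB1* start and an alternative *HMGA1* start, whereas *HMGN4* and *HMGN5* had none. The E2F-type words TTCCCGC and TTGGCGC, searched on both strands, lay in 0 of the 12 entries, against 5.52% and 2.56% of all entries. These matches describe the letters in these windows only.

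*HMGB1* and *HMGB2* both fell. They are the close relatives of *HMGB3*, and *HMGB1* is the ubiquitous and most studied of them. *HMGB1* (chromosome 13, 30456704 to 30617597, minus strand) had 76979, 77379 and 75836 normalised reads in shNEG and 52986, 55253 and 49768 in shSPINK2. The groups did not overlap, and the shSPINK2 mean was 68.6% of the shNEG mean, with a log2 fold change of -0.54 ± 0.04 (SE) and an adjusted p of 1.09e-13 in limma.

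*HMGB2* (chromosome 4, 173331376 to 173334432, minus strand) had 17212, 17187 and 17062 normalised reads in shNEG, a coefficient of variation of 0.469%. In shSPINK2 it had 11499, 11290 and 9913, so that library c lay below the other two and the spread was 7.9%. The groups did not overlap, the shSPINK2 mean was 63.5% of the shNEG mean, and the log2 fold change was -0.66 ± 0.05 (SE; adjusted p = 1.53e-14, limma).

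These falls were smaller than that of *HMGB3*. The log2 ratio of *HMGB3* to *HMGB1* reads lay between -3.84 and -3.79 in shNEG and between -5.41 and -5.37 in shSPINK2. The ratio of *HMGB3* to *HMGB2* lay between -1.68 and -1.62 in shNEG and between -3.17 and -3.08 in shSPINK2. Both are given without a test, since *HMGB3* was chosen by this contrast.

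*HMGA1*, an architectural factor of AT-rich DNA, also fell. It lies on chromosome 6 (34236873 to 34246231, plus strand) and had 16874, 16858 and 17490 normalised reads in shNEG and 13166, 13140 and 13610 in shSPINK2. The libraries of each group lay close together and the groups did not overlap. The shSPINK2 mean was 77.9% of the shNEG mean (log2 fold change -0.36 ± 0.04, SE; adjusted p = 1.93e-09, limma). *HMGA2* (chromosome 12, 65824460 to 65966291, plus strand), its oncofetal relative, was listed at a mean of 0, so that none of the 6 libraries had a read and no fold change exists.

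The 5 HMGN genes did not share a direction. *HMGN2* (chromosome 1, 26472440 to 26476642, plus strand), the most abundant of them per length, fell. It had 46506, 46594 and 44163 normalised reads in shNEG and 35526, 39088 and 36032 in shSPINK2. The groups did not overlap, and the shSPINK2 mean was 80.6% of the shNEG mean (log2 fold change -0.31 ± 0.04, SE; adjusted p = 7.91e-08, limma).

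*HMGN3* (chromosome 6, 79201245 to 79234689, minus strand), a nucleosome-binding protein known from endocrine tissue, was the member that rose. It had 1653, 1587 and 1656 normalised reads in shNEG and 2097, 2065 and 1913 in shSPINK2. All 3 shSPINK2 libraries lay above all shNEG libraries, at 124% of the shNEG mean (log2 fold change 0.31 ± 0.05, SE; adjusted p = 1.57e-06, limma). An antisense gene, *HMGN3-AS1*, overlaps it and had a mean of 22.5 normalised reads. Whether the counting used strand is not given in the sources used here.

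*HMGN5* (chromosome X, 81113699 to 81201913, minus strand), which carries a long acidic tail, had 2214, 2032 and 2198 normalised reads in shNEG and 1960, 2034 and 1735 in shSPINK2. The groups overlapped in shNEG b and shSPINK2 b. It passed the test with a log2 fold change of -0.17 ± 0.05 (SE; adjusted p = 0.0059, limma), but without library shSPINK2 c the log2 fold change was -0.10 with an adjusted p of 0.074, and scaling by the upper quartile gave -0.11 with 0.052.

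*HMGN1* and *HMGN4* did not pass the test. *HMGN1* (chromosome 21, 39342315 to 39349647, minus strand), encoded in the Down syndrome region, had 18209, 18096 and 17203 normalised reads in shNEG and 17821, 17545 and 15879 in shSPINK2. The groups overlapped, and the 95% interval of the log2 fold change of -0.06 ran from -0.15 to 0.03 (adjusted p = 0.22, limma). *HMGN4* (chromosome 6, 26538366 to 26546933, plus strand), a gene with a single coding exon derived from *HMGN2*, had 2787, 2700 and 2773 normalised reads in shNEG and 2797, 3008 and 2713 in shSPINK2. Its log2 fold change of 0.04 had an interval from -0.05 to 0.14 (adjusted p = 0.45, limma). With upper quartile scaling, *HMGN4* passed the test at a log2 fold change of 0.10 and an adjusted p of 0.04.

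Counted together, 6 of the 8 relatives tested passed an adjusted p of 0.05, against 58.6% of all 16079 genes. Of these, 5 were lower, where 29.9% of all genes were, and 1 was higher, where 28.8% were. None of the 8 passed a log2 fold change of 1 in either direction, which 2.96% of all genes did downwards and 1.85% upwards in limma, and edgeR likewise found 0. At an unadjusted p under 0.05 in limma, 6 of the 8 passed. The share of all genes at that threshold was not counted, but it is at least the 58.6% above. The groups did not overlap for 5 of the 8, against 62.5% of all genes. The share called was high throughout this comparison, and where the mean reached 1000, as it did for all 8, 73.4% of genes were called. The median log2 fold change of the 8 was -0.24, beside 0.002 over all genes tested.

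**Figure D1:**
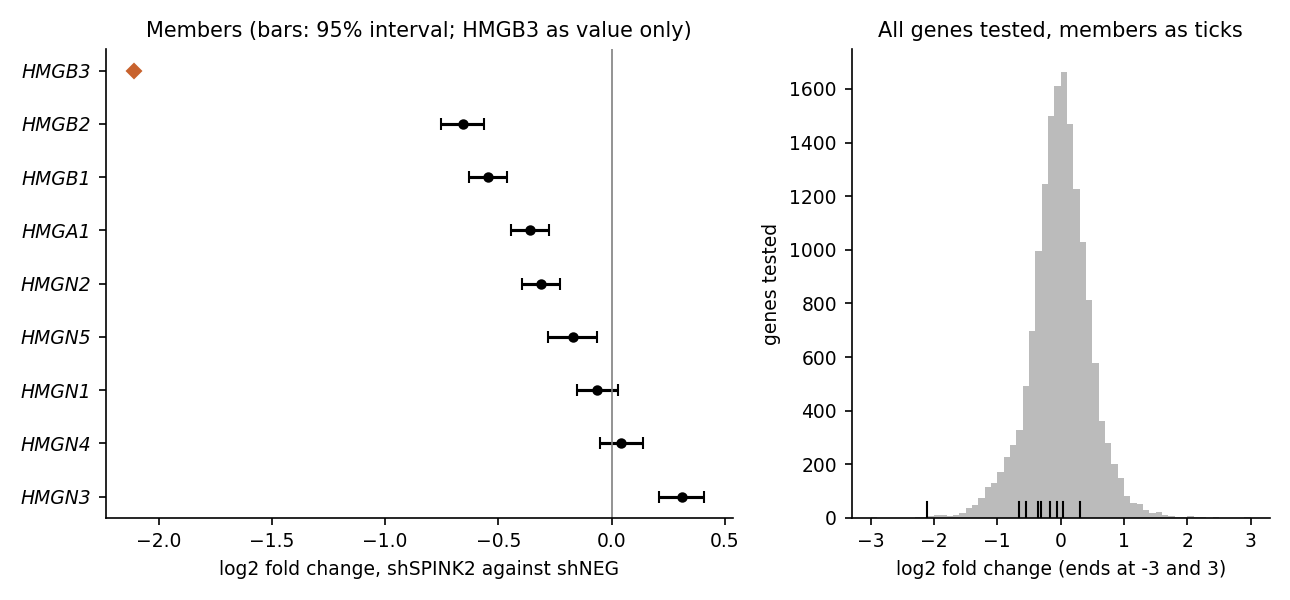
Left, log2 fold change of shSPINK2 against shNEG (horizontal axis) for each HMG gene with reads, with 95% intervals from limma for the 8 relatives and the value alone, as a diamond, for *HMGB3*. Right, the same values as ticks on the histogram of all 16079 genes tested; *HMGB3* lies at -2.11, and the relatives lie between -0.66 and 0.31.

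The spread of the members followed the libraries. The coefficient of variation was larger in shSPINK2 than in shNEG for 8 of the 9 genes, the exception being *HMGA1*, and this held for 76.2% of the 6948 genes named above. Library shSPINK2 c had the lowest value of its group for 7 of the 9 members, among them *HMGB1*, *HMGB2*, *HMGB3* and *HMGN3*, and for 56.2% of those 6948 genes. It was thus low for *HMGN3*, which rose, as well as for the genes that fell.

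Levels of the 3 HMGB genes can be set side by side only per length, and normalised reads per kb of exonic length (GENCODE v44) were used. Added together, they came to 18548, 18640 and 18318 per kb in shNEG and 12000, 12222 and 10895 per kb in shSPINK2, so that the pool stood at 63.3% of its shNEG level. *HMGB1* made up 53.9% of the pool in shNEG and 58.5% in shSPINK2, and *HMGB2* 38.6% and 38.8%. Per coding length the portion of *HMGB2* was 17.6% in shNEG and 17.2% in shSPINK2, so neither its level nor its direction holds across lengths. *HMGB3* was the minor component, with 7.42%, 7.66% and 7.41% of the pool under shNEG and 2.72%, 2.79% and 2.75% under shSPINK2.

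The fall of the pool was divided among the genes. Of the difference of -6796 normalised reads per kb between the group means, *HMGB1* made up 46%, *HMGB2* 38.3% and *HMGB3* 15.7%. These portions depend on the length used: with coding length *HMGB1* made up 68.8%, *HMGB2* 18.4% and *HMGB3* 12.8%. In both cases *HMGB3*, with the largest fold change of the 3, had the smallest portion.

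The HMGN pool changed less. The 5 genes came to 21380 ± 505 normalised reads per kb in shNEG and 18683 ± 860 in shSPINK2 (SD, n = 3), which is 87.4%. *HMGN2* made up 67.1% of it in shNEG and 61.9% in shSPINK2. The portion of *HMGN3* was 5.65%, 5.47% and 5.92% under shNEG and 8.45%, 7.82% and 7.92% under shSPINK2. Per coding length it was 1.7% and 2.46% and without a length correction 2.33% and 3.33%, so the level of this portion depends on the length used, while the shSPINK2 value was the higher under all 3. *HMGN3* and *HMGN4* cannot be ordered, since *HMGN3* was below *HMGN4* in both groups per coding length but only in shNEG per exonic length.

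Ratios within a library do not depend on the scaling between libraries, and 3 of them were tested among the relatives. The log2 ratio of *HMGB2* to *HMGB1* reads was -2.16 ± 0.01 in shNEG and -2.27 ± 0.06 in shSPINK2. That of *HMGN2* to *HMGN1* was 1.36 ± 0.01 and 1.11 ± 0.10, and that of *HMGA1* to *HMGB1* was -2.17 ± 0.05 and -1.98 ± 0.10 (SD, n = 3). In each case the groups did not overlap. Among single genes this held for 62.5% of all those tested, and the share over ratios of other genes was not counted. The two-sided exact permutation p was 0.1, also after Benjamini-Hochberg adjustment over the 3 ratios, which is the smallest value that 3 against 3 libraries can give. Within these libraries *HMGB2* was thus lower relative to *HMGB1*, *HMGN2* lower relative to *HMGN1*, and *HMGA1* higher relative to *HMGB1*, without reaching 0.05.

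Genes of the HMG family have many processed copies, and reads can be split between a gene and its copies. For *HMGB1*, 49 pseudogenes were in the table, 28 with reads, and their means added up to 6860 normalised reads, or 10.6% of the *HMGB1* mean. Most of that was *HMGB1P6*, at 4445 normalised reads on average (log2 fold change -0.67 ± 0.05, SE; adjusted p = 1.98e-13, limma). *HMGB1P5* (-0.62, adjusted p = 3.86e-13) and *HMGB1P10* (-0.85, adjusted p = 1.86e-09) fell as well. Thus 3 of the 5 copies tested were called, all lower, against 58.6% of all genes called and 29.9% called lower. *HMGB1P1* (-0.13) and *HMGB1P37* (-0.25) were not called. The copies of *HMGN2* came to 1.55% and those of *HMGB3* to 1.03% of their parent gene, and of the 4 *HMGN2* copies and 1 *HMGB3* copy tested none was called. For *HMGB2*, *HMGA1*, *HMGN1* and *HMGN3* the copies came to at most 0.347% of the parent.

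To see whether a match to the shRNAs accompanied the falls, the 7-base word that faces positions 2 to 8 of each guide strand was searched in the principal transcript of each member. The sequences are shown because this word is the part of a guide that pairs first with other transcripts. The targets in *SPINK2* follow, with the word in capitals, and only that of shRNA1 is given in the study's methods.
shRNA1 target: tcagggaaggtggTCATAATa
shRNA2 target: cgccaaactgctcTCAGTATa
HMGB1, chr13:30460728-30460750, minus strand, shRNA1 word: cctgcataTCATAATgggggtaa
HMGB1, chr13:30460153-30460175, minus strand, shRNA2 word: tttgcatcTCAGTATgaattatt
HMGB2, chr4:173331970-173331992, minus strand, shRNA2 word: tactagctTCAGTATaaaaactg
HMGN4, chr6:26546623-26546645, plus strand, shRNA1 word: acattttgTCATAATtgtaacca
HMGN5, chrX:81114617-81114639, minus strand, shRNA1 word: atgtagttTCATAATttggtaac
The shRNA1 word was in 3 of the 10 members, *HMGB1*, *HMGN4* and *HMGN5*, and in 17.5% of 12393 protein-coding genes tested. The shRNA2 word was in 4, *HMGA2*, *HMGB1*, *HMGB2* and *HMGN5*, and in 22.9% of those genes. All of these sites lie in 3′ UTRs. Neither word was found in the principal transcript of *HMGB3*, nor in those of *HMGA1*, *HMGN1*, *HMGN2* and *HMGN3*. The word GCTCTCA, at positions 10 to 16 of the shRNA2 target, was in 1 member, in the 5′ UTR of *HMGB1*, and in 22.3% of the genes. The members with a word thus include *HMGB1* and *HMGB2*, which fell, *HMGN5*, and *HMGN4*, which was not called. A match of 7 letters is a description and not a site of action.

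For the HMGA genes the word searched was CTACCTC, which faces the seed of the let-7 microRNAs. It is shown because HMGA2 is a known let-7 target.
HMGA1, chr6:34245836-34245858, plus strand: ttcacaaaCTACCTCtggacagt
HMGA2, chr12:65964540-65964562, plus strand: actcaataCTACCTCtgaatgtt
It occurred in the 3′ UTRs of *HMGA1* and *HMGA2*, also in the 5′ UTR of *HMGA2*, and in none of the other 8 members, and in 24.1% of the genes searched. Of the 8 genes listed around this axis, 5 were under a mean of 10, among them *LIN28B*, an inhibitor of let-7 maturation, at 5.49. Of the 3 tested, *DICER1*, the enzyme that cuts microRNA precursors, rose with a log2 fold change of 0.39 ± 0.05 (SE; adjusted p = 5.22e-09, limma), and *TRIM71*, another let-7 target, fell at -0.42 ± 0.07 (adjusted p = 3.05e-06). *ARID3B* was called lower at -0.25 (adjusted p = 0.019), but not without library shNEG b (adjusted p = 0.11), without shSPINK2 b (0.052) or with upper quartile scaling (0.073).

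The wider list, mainly of HMG-box genes, held 35 genes, of which 28 were tested. Of these 15 fell, 8 rose and 5 were not called, and their median log2 fold change was -0.21. Over all genes 29.9% were lower and 28.8% higher, so the count that rose is near the share over all genes. *SOX5* was called higher at 0.40 (adjusted p = 0.035, limma), but not when any library other than shSPINK2 b was left out. The lowest was *TCF7*, a Wnt pathway transcription factor, which went from 179.2 ± 12.9 to 46 ± 3.8 normalised reads (SD, n = 3; log2 fold change -1.95, adjusted p = 3.27e-13, limma). It was the 1 gene of the 28 with more than a 1-unit log2 change. The highest was *HBP1*, a repressor that slows entry into the cell cycle, at 0.65 (adjusted p = 5.23e-13). *SSRP1*, the HMG-box subunit of the FACT histone chaperone, fell by 0.54 on the log2 scale, *TFAM*, which packages mitochondrial DNA, fell by 0.23, and *SOX4* fell by 0.26 (adjusted p of 3.34e-13, 8.43e-05 and 0.0062).

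Partners and receptors of the HMGB proteins gave 16 tested genes of 22, with 7 lower, 2 higher and 7 not called, and the median was -0.20 on the log2 scale. The 9 called are near the 58.6% called over all genes in either direction. By direction, 29.9% of all genes were called lower and 28.8% higher. The lowest was *SET*, a histone chaperone of the complex in which HMGB2 was found, at -0.83 ± 0.04 (SE; adjusted p = 5.39e-18, limma). The 2 genes that rose were *CD24* and *TLR4*. *CD24*, a surface protein that binds HMGB1, went from 667.8 ± 28.6 to 1316 ± 33 normalised reads (SD, n = 3; log2 fold change 0.98, adjusted p = 7.33e-17), and *TLR4*, a receptor for extracellular HMGB1, rose by 0.53 (adjusted p = 1.03e-12). *AGER*, the RAGE receptor, was not called (-0.19, adjusted p = 0.088), but was without library shSPINK2 c (-0.26, adjusted p = 0.026). *THBD*, a surface protein that binds HMGB1, fell by 0.41 (adjusted p = 4.27e-08).

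Among nucleosome remodellers and histone chaperones, which work beside the HMGN proteins, 11 of 16 genes fell, none rose and 5 were not called. The median log2 fold change was -0.33. The 11 called are near the 73.4% called in either direction among genes whose mean reached 1000, as those of all 16 did. All 11 were lower, however, where 29.9% of all genes tested were called lower. *CHAF1A*, the large subunit of the CAF-1 chaperone that loads histones at the replication fork, was the lowest at -0.99 ± 0.05 (SE; adjusted p = 1.7e-19, limma). *NPM1*, the nucleolar chaperone, was the highest at 0.07 and was not called (adjusted p = 0.2). It was called higher without library shSPINK2 c (0.11, adjusted p = 0.021) and with upper quartile scaling (0.12, adjusted p = 0.0053). Without library shSPINK2 b, *SMARCA5*, *CHD1*, *ASF1A* and *NAP1L1* were also called lower, which made 15 of the 16 lower. *SUPT16H*, the partner of *SSRP1* in FACT, fell by 0.24 and *DEK*, a chromatin protein named for a leukaemia fusion, fell by 0.64 (adjusted p of 8.71e-06 and 1.15e-13).

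The linker histones, with which HMGN proteins compete, could hardly be read in this table. Of 10 genes, 8 had a mean under 10. *H1-10* fell by 0.64 on the log2 scale (adjusted p = 4.36e-13, limma), and *H1-2* was not called at 0.19 (adjusted p = 0.27).

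The falls of the HMG genes came beside a fall of proliferation markers. All 16 tested fell, between -1.30 for *MKI67* and -0.53 for *MCM5*. Their median log2 fold change was -0.99, beside 0.002 over all genes tested, and 8 lay below -1. Of all genes tested, 29.9% were called lower and 2.96% were called below -1. All 16 means reached 1000, and 73.4% of such genes were called in either direction. *TOP2A* fell by 1.06 on the log2 scale, and *PCNA* fell by 0.89. *HMGB2* at -0.66 was within the range of these markers. *HMGB1* at -0.54 lay at the upper edge of that range, next to *MCM5* at -0.53, each with a standard error of 0.04. *HMGA1* and *HMGN2* were above all of the markers, and *HMGB3* at -2.11 was below all of them. The part of cell division in the HMG values was not tested, and in bulk samples fewer cells of a kind and less RNA per cell cannot be told apart. Myeloid markers went both ways, with 4 of the 8 tested higher, *ELANE* most at 0.88, and 2 lower, of which *CD34* was the lowest at -0.85. Beside these counts, 28.8% of all genes were called higher and 29.9% lower. *CD34*, with a mean of 19.6 normalised reads, was not called without library shNEG c (adjusted p = 0.057) or without shSPINK2 a (0.051).

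The genes whose 6 library values were closest to those of *HMGB3* were looked up among the 8815 genes whose mean reached 500. Likeness was the root mean square distance between the log2 values relative to the shNEG mean, over the 6 libraries. The nearest were *ETV4*, an ETS transcription factor, at 0.08, *C1QBP*, a mitochondrial matrix protein, at 0.08, *PRC1*, a central spindle protein, at 0.12, *TWISTNB*, an RNA polymerase I subunit, at 0.13, and *RSU1*, an adhesion adaptor, at 0.15. *C1QBP*, for instance, had 14287, 14465 and 14822 normalised reads in shNEG and 3679, 3632 and 3481 in shSPINK2. Their log2 fold changes lay between -2.10 and -1.93. This distance mostly follows the size of the fall, and the HMG relatives lay between -0.66 and 0.31. That none of the 5 is an HMG gene was thus fixed by those values.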

How the data were processed

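RNA of FUJIOKA cells (3 shNEG and 3 shSPINK2 libraries) was sequenced by the authors as paired reads on an MGI platform. Reads were aligned to GRCh38 with STAR (2.7.11 in the submitters' processing notes), counted with featureCounts and compared with DESeq2 by the authors (1.40.0). The deposited table gives a signal for each gene, namely its read count scaled by the authors' size factors and averaged across the 6 libraries. It also holds log2 fold changes, their standard errors and p-values, deposited as the authors' own comparison, which are not printed here. The annotation release and strandedness are not given in the sources used here.

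Whole reads per library were recovered. Each mean, deposited to 15 significant digits, is a sum of 6 whole read numbers with fixed weights, which genes with 1 read in 1 library give directly. The reads that gave the mean within 0.7 units of its last digit, and whose fit gave the deposited log2 fold change, were searched. The deposited standard error was a further input of the search. In the reads kept, the largest difference from the deposited fold change was 2e-14. The group of a library follows from the direction of the deposited comparison, read as shSPINK2 against shNEG. Exactly 1 solution was found for 99.7% of the 16131 genes with a mean of at least 10 (16079 genes) and for all 9 members with reads. The search left out 40 genes with a mean above 65000, which hold 10.9% of the normalised reads. The recovery was also tried on simulated data, for which no result is given here. For *HMGB1* and *HMGN2*, the members with the highest means, a tolerance wider than 0.7 units was not tested.

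Reads were scaled by the recovered size factors, genes with a mean of at least 10 were kept, and the groups were compared with limma 3.58.1 (voom weights, R 4.3.3, Benjamini-Hochberg adjustment), with an adjusted p of 0.05 and, where stated, an absolute log2 fold change of 1. Ratios were compared by exact permutation tests (scipy 1.17.1). edgeR 4.0.16 was run as an alternative chosen after the data were seen. Exonic lengths and gene positions came from GENCODE v44, and 10 linker histone symbols were matched by Ensembl ID. Named genes were all members, the lowest and highest gene of each list and a few genes of known function fixed by name. Where further genes are named, they were chosen after their values were seen. The members and lists were chosen with earlier results of these data known. The values of 2 listed genes are not reported here.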

Additional observations from a re-analysis of the deposited data

How the results depend on the processing

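Across the alternatives none of the log2 fold changes of the members reversed, and *HMGB1*, *HMGB2*, *HMGA1*, *HMGN2* and *HMGN3* passed the test under all 14. *HMGB3* ranged from -2.15 to -2.05. *HMGN5* lost its call with upper quartile scaling and without library shSPINK2 c, and *HMGN4* gained one with upper quartile scaling, which made 2 members higher instead of 1 and moved the median of all genes to 0.061. No paired analysis was possible because the recovered libraries carry no replicate number. A 1.5-fold threshold called 1 relative lower, *HMGB2*, and 1469 genes lower and 1248 higher, against 476 and 297 at a log2 fold change of 1 and 15 and 17 at 2. The 297 genes became 504 with a minimum mean of 1, 136 with a minimum of 50, and 192 in the limma trend fit with a pseudocount of 5. The *HMGB3* share of the HMGB pool was 7.5% in shNEG and 2.75% in shSPINK2 per exonic length, 5.47% and 1.94% without a length correction, and 5.83% and 2.08% per coding length. A tolerance 10 times wider gave the same reads for the 7 members tried, and was not run for *HMGB1* and *HMGN2*. The planned tolerance of the recovery was narrower than the rounding of the deposited means allows, so the last printed digit was used. Among the lists, linker histones called lower became 2 with a minimum mean of 1, let-7 genes called lower became 1 (*ARID3B* lost) and remodellers called higher became 1 (*NPM1*) with upper quartile scaling, and myeloid markers called lower became 1 (*CD34* left out) with a minimum mean of 50. Leaving out 1 library each gave 1 to 2 let-7 genes, 1 to 2 myeloid markers and 11 to 15 remodellers lower. It gave 0 to 1 remodellers higher, and the cause of these changes was not tested.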
